A study of Mus musculus with 6 samples.

Results

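The oligoadenylate synthetase (OAS) family was examined in ID8, a mouse line derived from ovarian surface epithelium of the C57BL/6 strain. The 8 members, Oas1a, Oas1b, Oas1c, Oas1g, Oas2, Oas3, Oasl1 and Oasl2, were taken by symbol from the 41327 genes of the count table, and all 8 were found. Total RNA was sequenced from cells of the genotype Trp53-/- (Trp53_KO, 3 libraries) and of the genotype Trp53+/+ (Trp53_WT, 3 libraries). Cells of both genotypes were immortalized, untreated and grown asynchronously. The labels name no clone and no allele beyond the genotype, and they do not say whether replicates came from separate cultures, so a p-value here reflects how far single libraries scattered, and that scatter may be technical.

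OAS enzymes bind double-stranded RNA, as made by many viruses and by paired transcripts of repeats, and join ATP into short 2'-5'-linked oligoadenylates (2-5A). These molecules act as a second messenger that sets off the decay of viral and cellular RNA. Interferons raise the transcription of OAS genes through the factor ISGF3, which includes Stat2 and Irf9 and binds the interferon-stimulated response element in their promoters. The study concerns viral mimicry in cells without p53, and the comparison asks how this double-stranded RNA response system differs between the genotypes.

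Total gene counts lay between 16597529 and 19574772 in Trp53_KO libraries and between 15319956 and 19954170 in Trp53_WT libraries. Trp53 RNA lay between 25.3 and 29.6 CPM (counts scaled to library size) in Trp53_KO and between 97.3 and 110 CPM in Trp53_WT. Trp53_WT replicate 1 stood apart from its group, with a chi-square per degree of freedom of 27.5 and 26.9 against the other Trp53_WT libraries, where these differed by 2.01 from each other. Over all tested genes, 14.1% were higher and 16.1% lower in Trp53_KO (edgeR, adjusted p under 0.05). Of 8 markers of the ovarian surface epithelium and mesothelium, all tested, 4 were higher and 3 lower in Trp53_KO. The higher ones were Lrrn4 (mean of 65.5 CPM in Trp53_KO and 0.235 CPM in Trp53_WT), Upk3b (531 CPM in Trp53_KO and 73.7 CPM in Trp53_WT), Wt1 (339 CPM in Trp53_KO and 192 CPM in Trp53_WT) and Krt7 (6.90 CPM in Trp53_KO and 3.93 CPM in Trp53_WT). The lower ones were Msln (1173 CPM in Trp53_KO and 1401 CPM in Trp53_WT), Krt8 (492 CPM in Trp53_KO and 611 CPM in Trp53_WT) and Krt19 (469 CPM in Trp53_KO and 577 CPM in Trp53_WT), and Krt18 was not called (416 CPM in Trp53_KO and 440 CPM in Trp53_WT). Of 7 immune cell markers, Adgre1 and Cd3e had no count in any library, and the summed level of the list lay between 4.10 and 4.36 CPM in Trp53_KO and between 5.0 and 5.36 CPM in Trp53_WT, most of it Cd68. The endothelial genes Cdh5 and Kdr had no count in any library, and the summed level of 4 endothelial markers lay between 1.65 and 2.35 CPM in Trp53_KO and between 0.148 and 0.203 CPM in Trp53_WT, with Pecam1 called higher. The fibroblast markers Dcn, Pdgfra and Col15a1, all 3 called higher, summed to between 229 and 251 CPM in Trp53_KO and to between 101 and 108 CPM in Trp53_WT. Lrrn4 and Pecam1 passed the filter on low counts through the Trp53_KO libraries alone, with 3 libraries there and 0 in Trp53_WT. Genes that pass in this way had to differ between the groups. The part of these marker levels in the OAS values was not tested.

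The family lies in 2 groups on mouse chromosome 5 (GRCm38). Oasl2 (chr5:114896936-114912234) and Oasl1 (chr5:114923240-114937915) are neighbours on the plus strand. Oas2 (chr5:120730333-120749853), Oas3 (chr5:120753098-120777661), Oas1c (chr5:120800194-120812514), Oas1b (chr5:120812635-120824163), Oas1g (chr5:120876142-120887613) and Oas1a (chr5:120896256-120907521) form the larger cluster, in which Oas1b alone of the 6 is on the plus strand. Oas1c and Oas1b thus start close to each other and run in opposite directions.

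The sequences around the start sites are shown because 4 of the 6 members with a promoter in the RefSeq table carry the core of the interferon-stimulated response element there. Promoters were matched for 6 of 8 members (RefSeq, GRCm38.p6). Oas1b and Oas2 were not matched. Each line runs 5' to 3' on the strand of the gene, from 150 bases before to 20 bases after the start site, and capitals mark every match to GAAANNGAAA, searched on both strands.
Oas1a, chr5:120907506-120907675, minus strand: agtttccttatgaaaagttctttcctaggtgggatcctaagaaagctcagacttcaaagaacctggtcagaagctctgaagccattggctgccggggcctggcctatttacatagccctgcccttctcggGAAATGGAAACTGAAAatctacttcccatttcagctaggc
Oas1g, chr5:120887594-120887763, minus strand: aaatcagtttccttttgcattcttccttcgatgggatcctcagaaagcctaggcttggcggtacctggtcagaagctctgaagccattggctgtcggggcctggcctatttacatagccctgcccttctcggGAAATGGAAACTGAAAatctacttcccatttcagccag
Oas1c, chr5:120812495-120812664, minus strand: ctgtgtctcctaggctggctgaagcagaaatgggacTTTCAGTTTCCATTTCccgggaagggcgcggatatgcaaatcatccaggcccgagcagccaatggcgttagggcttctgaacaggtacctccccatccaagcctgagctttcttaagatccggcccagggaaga
Oas3, chr5:120777640-120777809, minus strand: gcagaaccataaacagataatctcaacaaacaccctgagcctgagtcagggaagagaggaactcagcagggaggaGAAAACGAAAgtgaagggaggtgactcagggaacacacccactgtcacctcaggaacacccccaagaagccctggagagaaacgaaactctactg
Oasl1, chr5:114923090-114923259, plus strand: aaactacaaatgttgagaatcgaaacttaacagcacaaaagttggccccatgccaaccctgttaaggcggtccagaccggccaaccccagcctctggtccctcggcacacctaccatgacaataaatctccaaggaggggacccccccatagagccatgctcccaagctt
Oasl2, chr5:114896784-114896953, plus strand: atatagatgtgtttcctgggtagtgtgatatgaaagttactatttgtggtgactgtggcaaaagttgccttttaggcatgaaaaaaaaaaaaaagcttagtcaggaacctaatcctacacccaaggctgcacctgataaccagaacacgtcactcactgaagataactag

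In the 300-base windows that reach 250 bases before the start site, Oas1a, Oas1g and Oas1c each held 2 overlapping matches that joined into the same 16 bases, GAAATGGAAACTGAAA. In Oas1a the block lay at -20 to -5 from the start site and in Oas1g at -18 to -3. In Oas1c it lay on the opposite strand at -114 to -99 (chr5:120812613-120812628), so that it reads in the direction of Oas1b, and its end is 7 bases before the RefSeq start of Oas1b (position 120812635). Oas3 held a single match at -75 to -66. Oasl1 and Oasl2 had no match in their windows, which says only that these letters are not there. The core was found in 1131 of 32851 RefSeq promoter windows of this length, or 3.44%. Counted by gene symbol, it was found for 1079 of 27025, or 3.99%.

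**Figure D1:**
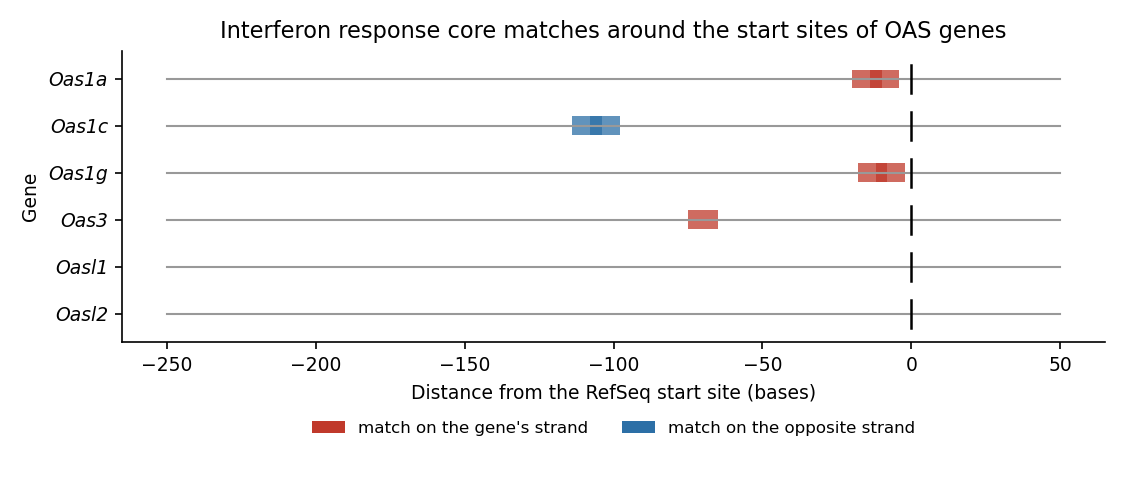
Matches to the core of the interferon-stimulated response element (coloured blocks; darker where matches overlap) by distance in bases from the RefSeq start site (black tick) for the 6 OAS genes with a promoter entry; grey lines are the 300-base windows. Oas1a and Oas1g carry the block directly before the start site, and in Oas1c it lies on the opposite strand.

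All 8 members passed the filter on low counts. Oas2 passed through the Trp53_WT libraries alone, where all 3 reached the filter level of 0.538 CPM against 0 of 3 in Trp53_KO, and Oas3 reached it in 3 Trp53_WT libraries and 1 Trp53_KO library. Oas2, which passed through 1 group alone, had to differ between the groups. Oas3 passed mostly through the Trp53_WT libraries. Of the 8 members, 6 were lower in Trp53_KO and 0 were higher (quasi-likelihood test of edgeR, with p adjusted by Benjamini-Hochberg over all 13651 genes tested and called under 0.05), where 16.1% of all tested genes were lower and 14.1% were higher. At an unadjusted p under 0.05, no member was higher either, and neither DESeq2 nor limma-voom called one higher. The median log2 fold change of the members was -1.07, beside -0.02 over all tested genes. In 7 of 8 members every Trp53_KO library was below every Trp53_WT library, an order that 24.2% of all tested genes showed. Less RNA per cell and fewer expressing cells cannot be told apart in these bulk libraries.

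**Figure D2:**
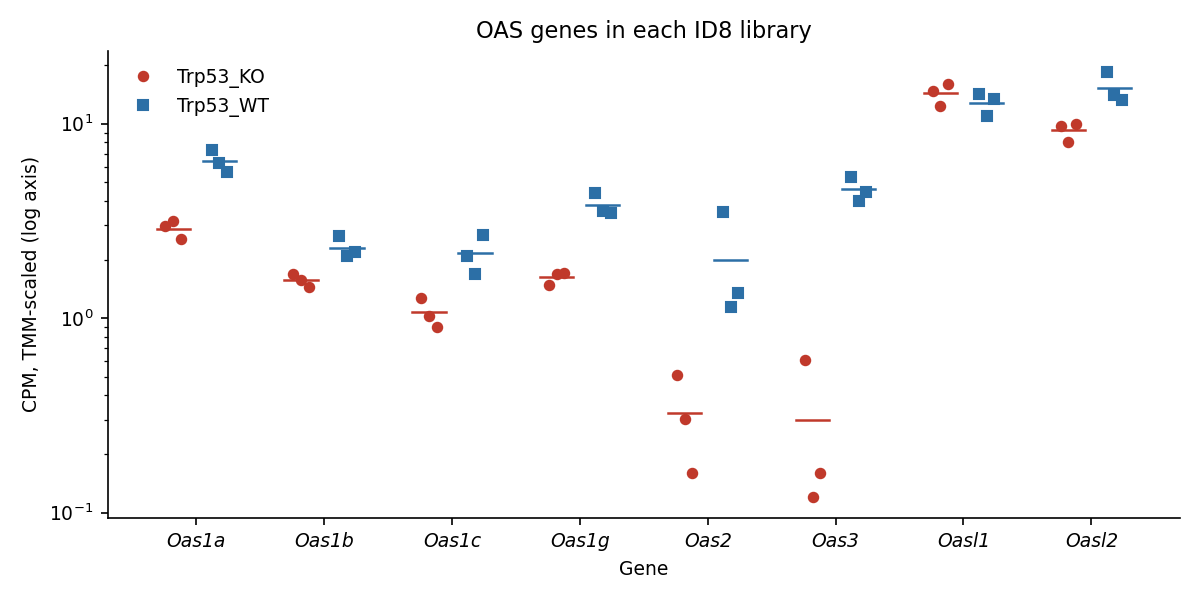
TMM-scaled CPM (log axis) of the 8 OAS genes in each library; red circles are the 3 Trp53_KO libraries and blue squares the 3 Trp53_WT libraries, with a line at each mean. The groups separate for every gene shown but Oasl1, and the lowest levels are those of Oas2 and Oas3 in Trp53_KO.

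The fitted log2 fold changes farthest from 0 were those of Oas3 and Oas2, the long family members. Oas3 carries tandem OAS units and binds long double-stranded RNA; in human cells it is the main source of 2-5A during viral infection. It had 12, 2 and 3 counts in Trp53_KO replicates 1 to 3 and 79, 81 and 83 counts in Trp53_WT replicates 1 to 3. In CPM these were 0.612, 0.121 and 0.160 in Trp53_KO and 5.33, 4.01 and 4.45 in Trp53_WT. The groups were far apart, and Trp53_KO replicate 1 was the highest of its group. The mean in Trp53_KO was 6.47% of that in Trp53_WT, with a log2 fold change of -3.86 ± 0.37 (SE; edgeR adjusted p = 3.7e-05). The ratio of summed, depth-scaled counts, Trp53_KO over Trp53_WT, was 0.0683, with an exact 95% interval of 0.0391 to 0.112 that covers counting error only. Without Trp53_KO replicate 1 the log2 fold change was -4.94.

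Oas2, which also carries tandem units and works as a dimer, had 10, 5 and 3 counts in Trp53_KO replicates 1 to 3 and 52, 23 and 25 counts in Trp53_WT replicates 1 to 3. In CPM these were 0.510, 0.302 and 0.160 in Trp53_KO and 3.51, 1.14 and 1.34 in Trp53_WT. The groups did not overlap, and Trp53_WT replicate 1, the library that stood apart, was well above the others of its group. The log2 fold change was -2.52 ± 0.57 (SE; edgeR adjusted p = 0.0083). Without Trp53_WT replicate 1 it was -1.90 ± 0.40 and still past the threshold (edgeR adjusted p = 0.0012). As Oas2 passed the filter through the Trp53_WT libraries alone, its groups had to differ, and both p-values carry that limit. The ratio of summed, depth-scaled counts, Trp53_KO over Trp53_WT, was 0.176 (exact 95% interval 0.100 to 0.292).

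Of the 4 Oas1 paralogs, Oas1a, Oas1g and Oas1c were called lower and Oas1b was not. Oas1a, a catalytically active short synthetase, was at 2.96, 3.14 and 2.55 CPM in Trp53_KO and at 7.29, 6.28 and 5.63 CPM in Trp53_WT. Every Trp53_KO library was below every Trp53_WT library, and the log2 fold change was -1.15 ± 0.15 (SE; edgeR adjusted p = 3.8e-04). Oas1g, its closest paralog and also an active enzyme, was at 1.48, 1.69 and 1.70 CPM in Trp53_KO and at 4.39, 3.56 and 3.48 CPM in Trp53_WT. Its groups did not overlap either, and its log2 fold change was -1.22 ± 0.17 (SE; edgeR adjusted p = 5.4e-04).

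These paralogs are hard to tell apart by short reads. Of the distinct 50-base stretches in the annotated transcripts (GENCODE M21), 57.6% of those of Oas1a and 45.7% of those of Oas1g also occurred in a transcript of another gene, for Oas1a always Oas1g, so the counting could split or drop reads between them and their separate levels are uncertain. The share was 9.83% for Oas1c, 2.78% for Oas1b, 0.310% for Oas3, 0.138% for Oasl2 and 0 for Oas2 and Oasl1. The ratio of Oas1g to Oas1a counts was 0.50, 0.538 and 0.667 in Trp53_KO libraries and 0.602, 0.567 and 0.619 in Trp53_WT libraries, and these groups overlapped.

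Oas1c, another paralog of the cluster, was at 1.27, 1.03 and 0.904 CPM in Trp53_KO and at 2.09, 1.68 and 2.68 CPM in Trp53_WT. The log2 fold change was -1.0 ± 0.25 (SE; edgeR adjusted p = 0.014), and the call was lost without Trp53_KO replicate 3 (edgeR adjusted p = 0.057) or Trp53_WT replicate 3 (0.058), within 0.0019 to 0.058 over the alternatives. An antisense gene, Gm43069, shares 227 exon bases with Oas1c, and the strand setting of the counting is not given in the sources used here.

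Oas1b is known as the flavivirus resistance gene of the mouse, and the C57BL/6 strain carries a premature stop codon in it; GENCODE M21 lists it as a polymorphic pseudogene and RefSeq as a transcribed pseudogene. Its RNA was at 1.68, 1.57 and 1.44 CPM in Trp53_KO and at 2.63, 2.08 and 2.20 CPM in Trp53_WT. The groups did not overlap, but the log2 fold change of -0.54 ± 0.19 (SE) missed the threshold (edgeR adjusted p = 0.053), and it lay between -0.61 and -0.45 over the alternatives.

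The 4 Oas1 rows were also added up within each library, since a sum does not depend on how reads were split between them, though it does on reads that were dropped. The sum was 7.39, 7.42 and 6.60 CPM in Trp53_KO and 16.4, 13.6 and 14.0 CPM in Trp53_WT, with means of 7.14 ± 0.47 CPM in Trp53_KO and 14.7 ± 1.5 CPM in Trp53_WT (SD, n = 3 each). The ratio of these means, Trp53_KO over Trp53_WT, was 0.487. Oas1d, Oas1e, Oas1f and Oas1h, the remaining mouse paralogs, had 0 counts in all 6 libraries.

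The OAS-like members carry ubiquitin-like domains after the synthetase part. Oasl2 was called lower and Oasl1 was not called, which alone does not show that they differ. Oasl2, which keeps synthetase activity in the mouse, was at 9.69, 8.03 and 9.95 CPM in Trp53_KO and at 18.4, 14.1 and 13.2 CPM in Trp53_WT. All Trp53_KO libraries were below all Trp53_WT libraries, with a log2 fold change of -0.71 ± 0.15 (SE; edgeR adjusted p = 0.0049). Oasl1 lacks synthetase activity and is known in the mouse as a repressor of the translation of Irf7, a transcription factor that drives interferon genes. Its levels were 14.6, 12.3 and 15.9 CPM in Trp53_KO and 14.2, 10.9 and 13.4 CPM in Trp53_WT. These groups overlapped, and the log2 fold change was 0.16 ± 0.13 (SE; edgeR adjusted p = 0.40).

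Ratios within a library do not depend on scaling, and 4 were computed, chosen after the values were seen. Oasl1 over Oasl2 was 1.51, 1.53 and 1.60 in Trp53_KO and 0.769, 0.775 and 1.02 in Trp53_WT. Oas3 over Oas1a was 0.207, 0.0385 and 0.0625 in Trp53_KO and 0.731, 0.638 and 0.790 in Trp53_WT. Oas2 over Oas1a was 0.172, 0.0962 and 0.0625 in Trp53_KO and 0.481, 0.181 and 0.238 in Trp53_WT. For these 3 ratios the groups did not overlap, and the exact permutation test, two-sided, gave p = 0.1, the smallest value that 3 against 3 libraries allow (0.133 after Benjamini-Hochberg adjustment over the 4). For Oas1g over Oas1a the exact permutation p was 0.6. With these group sizes no ratio could pass 0.05. Since the ratios were picked with the values in view, their separation is a description, and nothing is drawn from these p-values. Oas2 also passed the filter on low counts through the Trp53_WT libraries alone, which bears on its ratio to Oas1a.

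The make-up of the OAS counts is given as a description, with no test. Trp53_KO libraries held 467 to 644 OAS counts and Trp53_WT libraries 857 to 885. Oasl1 made up 44.6%, 43.7% and 48.5% of them in Trp53_KO and 24.5%, 25% and 28.9% in Trp53_WT. Oas3 made up 1.86%, 0.428% and 0.487% in Trp53_KO and 9.22%, 9.15% and 9.60% in Trp53_WT. The share of Oasl2 lay between 28.4% and 32.2% in all 6 libraries and overlapped between the groups. As summed CPM, the family was at 31.3 ± 2.7 in Trp53_KO and 49.3 ± 7.5 in Trp53_WT (SD, n = 3 each).

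**Figure D3:**
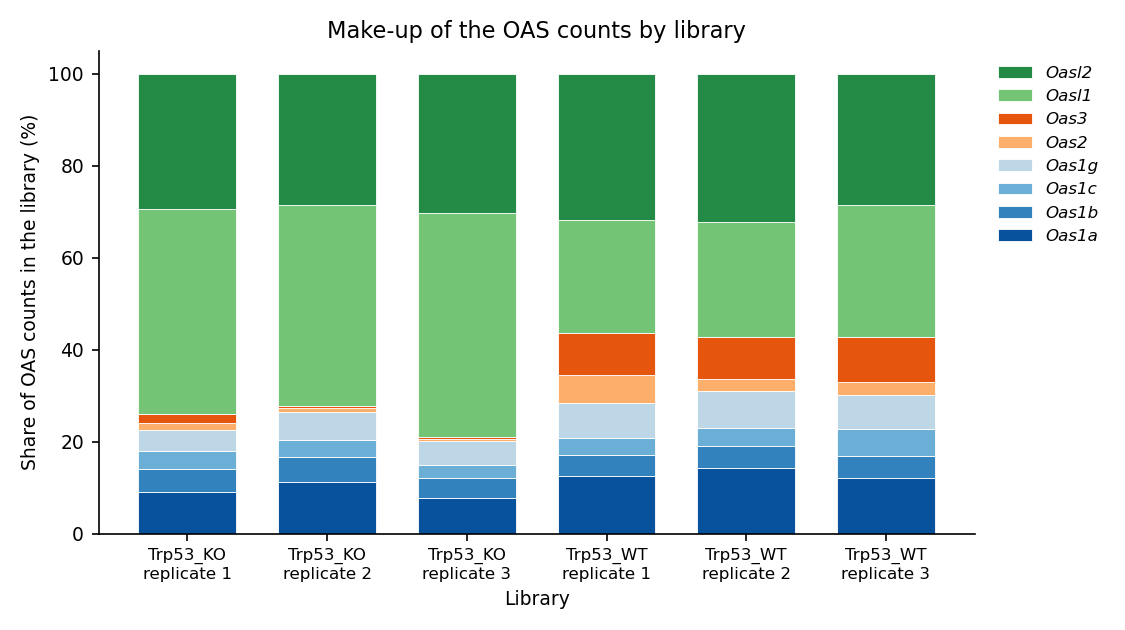
Share of the OAS counts of each library (percent, stacked bars) taken by each of the 8 genes, with the 3 Trp53_KO libraries on the left and the 3 Trp53_WT libraries on the right. Oasl1 takes 43.7% to 48.5% in Trp53_KO and 24.5% to 28.9% in Trp53_WT, and the Oas3 segment is nearly gone in Trp53_KO.

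Levels of different genes were compared per kilobase of annotated exon (RPKM). In Trp53_KO the order of mean RPKM levels was Oasl1 (5.48 ± 0.70), Oas1a (1.53 ± 0.16), Oasl2 (1.45 ± 0.16), Oas1b (0.784 ± 0.062), Oas1g (0.694 ± 0.054), Oas1c (0.444 ± 0.079), Oas2 (0.0727 ± 0.040) and Oas3 (0.0421 ± 0.039; SD, n = 3). In Trp53_WT it was Oasl1 (4.92 ± 0.65), Oas1a (3.40 ± 0.44), Oasl2 (2.39 ± 0.44), Oas1g (1.63 ± 0.21), Oas1b (1.16 ± 0.15), Oas1c (0.895 ± 0.21), Oas3 (0.650 ± 0.096) and Oas2 (0.448 ± 0.30; SD, n = 3). The libraries overlapped between the neighbours Oas1a and Oasl2, Oas1b and Oas1g, and Oas2 and Oas3 in Trp53_KO. In Trp53_WT they overlapped between Oas1b and Oas1c, Oas1c and Oas3, and Oas3 and Oas2. Every library of Oasl1 lay above every library of Oas1a within each genotype, by these values. RPKM divides by all exon bases, while reads shared between Oas1a and Oas1g may have been dropped in the counting. The levels of Oas1a and Oas1g may thus be too low here. Their places in both orders, and that of Oas1a below Oasl1, are uncertain. The length also joins the exons of all annotated transcripts, 6374 bases from 9 transcripts for Oasl2 and 1885 bases from 1 for Oas1a. Oasl2 may thus be too low as well. By CPM its mean was above that of Oas1a, at 9.22 against 2.88 in Trp53_KO and 15.2 against 6.40 in Trp53_WT. The order of Oas1a and Oasl2 therefore depends on the length used.

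Trp53_WT replicate 1 had the highest level of the Trp53_WT libraries for 7 of the 8 members, the exception being Oas1c. Without it, the same 6 members were called lower in Trp53_KO.

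Of 5 other genes listed for the turnover and action of 2-5A, 1 was lower (16.1% over all tested genes), 0 were higher (14.1%) and 4 were not called. The median log2 fold change of the list was 0.05. At an unadjusted p under 0.05 Enpp1 was higher, and DESeq2 and limma-voom called 0 higher. Abce1, a ribosome recycling factor, averaged 516 ± 40 CPM in Trp53_KO and 500 ± 36 CPM in Trp53_WT (SD, n = 3; edgeR adjusted p = 0.70).

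Known enzymes of 2-5A breakdown were not called. Pde12, a 2'-phosphodiesterase, averaged 52.6 ± 2.5 CPM in Trp53_KO and 56.3 ± 1.2 CPM in Trp53_WT (SD, n = 3 each), and Akap7, whose protein has a related activity in the mouse, averaged 8.38 ± 0.70 CPM in Trp53_KO and 8.09 ± 0.87 CPM in Trp53_WT. Enpp1, an ectonucleotide pyrophosphatase, had a log2 fold change of 0.21 ± 0.08 (SE), and none of these 3 was called (edgeR adjusted p between 0.089 and 0.81), though Enpp1 was called higher without Trp53_KO replicate 2 or without Trp53_WT replicate 1. Cnp, a cyclic nucleotide phosphodiesterase, was lower with a log2 fold change of -0.30 ± 0.10 (SE; edgeR adjusted p = 0.046), but under 10 of 13 alternatives it missed the threshold, with adjusted p-values of 0.045 to 0.20 over all of them, and 0 genes of the list were then called lower. These 10 include each library left out in turn.

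Other sensors of double-stranded RNA were lower in part. Of 8 listed, 7 were tested. Of these, 4 were lower (16.1% over all tested genes), 0 were higher (14.1%) and 3 were not called. Their median log2 fold change was -0.25. Ifih1, the gene of MDA5, averaged 31.5 ± 3.6 CPM in Trp53_KO and 31.0 ± 0.28 CPM in Trp53_WT (SD, n = 3; edgeR adjusted p = 0.87). Mavs, an adaptor listed with the sensors, had a log2 fold change of 0.05 (edgeR adjusted p = 0.63). Neither was called. At an unadjusted p under 0.05 again no sensor was higher, and DESeq2 and limma-voom called 0 higher. Ddx58, the cytosolic sensor RIG-I, was at 45.8, 45 and 47.8 CPM in Trp53_KO and at 76.8, 71.4 and 73.0 CPM in Trp53_WT, groups far apart beside their spread (log2 fold change -0.67 ± 0.07 SE; edgeR adjusted p = 7.3e-05). Tlr3, the endosomal receptor, was at 7.75, 7.18 and 6.44 CPM in Trp53_KO and at 18.7, 12.1 and 11.4 CPM in Trp53_WT, where replicate 1 was again the highest (log2 fold change -0.97 ± 0.19 SE; edgeR adjusted p = 0.0039). Dhx58, which modulates RIG-I and MDA5, had a log2 fold change of -0.67 ± 0.20, and Adar, which edits double-stranded RNA, one of -0.25 ± 0.09 (SE). Both calls are weak (edgeR adjusted p = 0.031 and 0.0499) and were lost under 7 and 9 of 13 alternatives, with adjusted p-values of up to 0.14 each. The number of sensors called lower was 2 in DESeq2 and without Trp53_KO replicate 1, 2 or 3 or Trp53_WT replicate 2. Eif2ak2, the kinase PKR, averaged 85.5 ± 4.2 CPM in Trp53_KO and 96.5 ± 3.3 CPM in Trp53_WT (SD, n = 3; edgeR adjusted p = 0.085), and it was called lower without Trp53_WT replicate 1 (0.025; 0.025 to 0.29 over the alternatives).

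Genes that share the nucleotidyltransferase fold with OAS, with the adaptor STING, went both ways. Of 5 reported here, 2 were higher (14.1% over all tested genes) and 1 was lower (16.1%), with a median log2 fold change of 0.14. Zfr, which encodes a double-stranded RNA-binding protein, and Mb21d2 rose by 0.44 and 0.28 on the log2 scale (edgeR adjusted p = 5.7e-04 and 0.022), and Mb21d2 missed the threshold without Trp53_KO replicate 1 or 2 or Trp53_WT replicate 2 (adjusted p of 0.019 to 0.069 over the alternatives). Mb21d1, the DNA sensor cGAS, fell by 0.25 on the log2 scale (SE 0.08; edgeR adjusted p = 0.032), and missed the threshold under 7 of 13 alternatives (adjusted p up to 0.14), among them those without Trp53_KO replicate 1 or 3 and without Trp53_WT replicate 2 or 3. Its adaptor gene Tmem173 missed the threshold (edgeR adjusted p = 0.17).

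Among 10 genes of interferon signalling, through which OAS genes are induced, 4 were lower (16.1% over all tested genes), 1 was higher (14.1%) and 5 were not called. The median log2 fold change of the list was -0.31. The higher one, the kinase gene Jak1 (log2 fold change 0.26; edgeR adjusted p = 0.047), was not called with the replicate block or without any 1 of Trp53_KO replicates 1 to 3 or Trp53_WT replicates 2 and 3. Irf7 was at 1.73, 1.45 and 1.91 CPM in Trp53_KO and at 5.27, 3.66 and 4.72 CPM in Trp53_WT. The groups did not overlap, and the log2 fold change was -1.40 ± 0.20 (SE; edgeR adjusted p = 4.7e-04). Irf9, the DNA-binding part of ISGF3, fell by 0.39 and Irf1 by 0.31 on the log2 scale (edgeR adjusted p = 0.0050 and 0.0046). Tyk2, a kinase of the receptor, fell by 0.39 as well (edgeR adjusted p = 0.019). Without Trp53_WT replicate 3 its log2 fold change was -0.37 and just missed the threshold (edgeR adjusted p = 0.054; 0.0081 to 0.054 over the alternatives). Irf3 and Irf2, with log2 fold changes of -0.26 and -0.47, were not called (edgeR adjusted p = 0.054 and 0.18), but Irf3 was called lower in limma-voom and without Trp53_WT replicate 1 (0.048 and 0.031; 0.031 to 0.15 over the alternatives). Irf2 was called lower without a filter on low counts (0.018; 0.018 to 0.62 over the alternatives), and its log2 fold change was -0.08 without Trp53_WT replicate 1. Stat2, another part of ISGF3, averaged 20.1 ± 1.7 CPM in Trp53_KO and 24.9 ± 5.4 CPM in Trp53_WT (SD, n = 3 each) and was not called (edgeR adjusted p = 0.15). Its log2 fold change was -0.30, and -0.12 without Trp53_WT replicate 1. The receptor genes Ifnar1 and Ifnar2 had log2 fold changes of -0.04 and 0.13 and were not called.

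**Figure D4:**
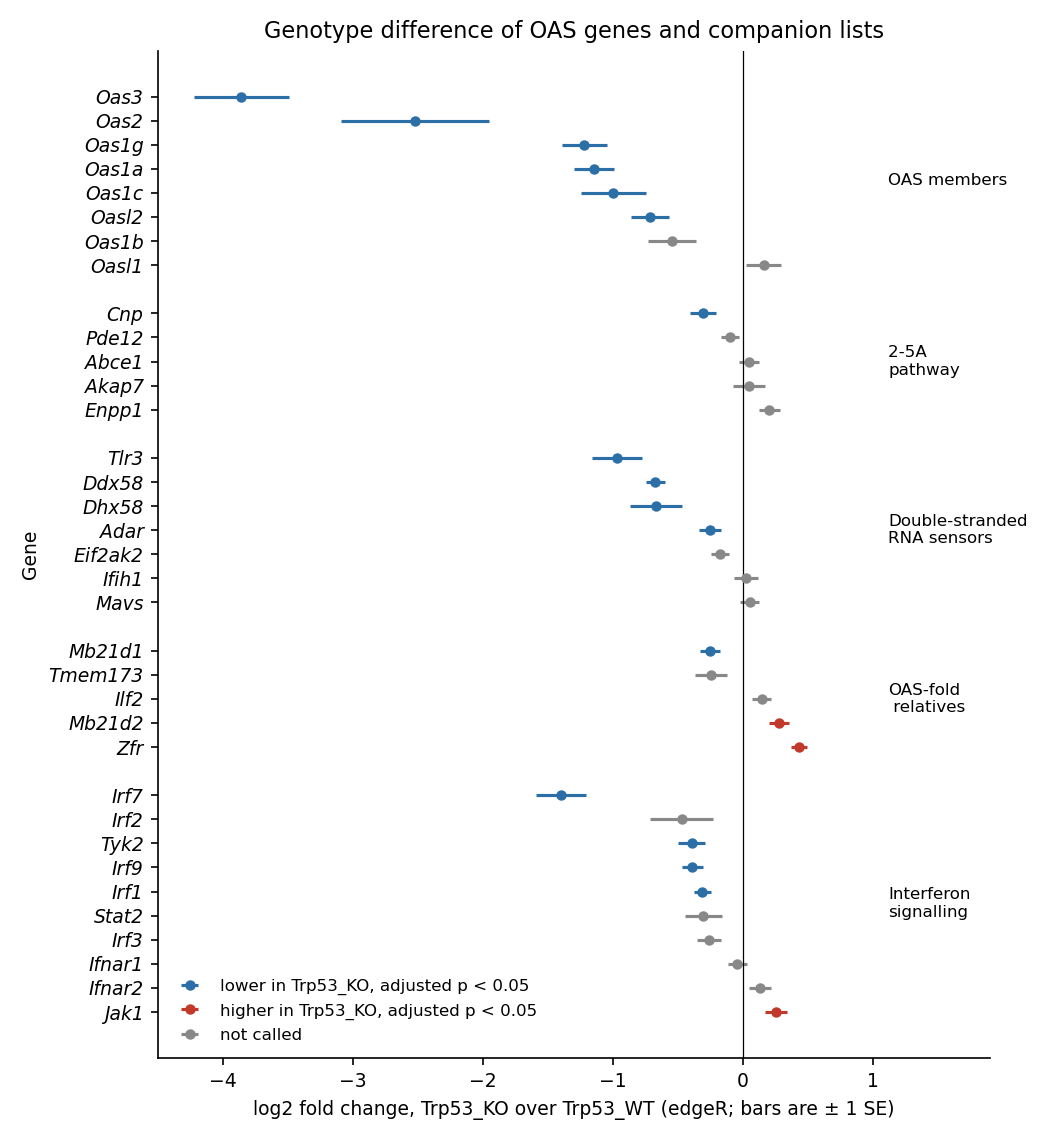
Log2 fold change, Trp53_KO over Trp53_WT, with ± 1 SE bars for the tested OAS genes and the companion lists; blue is lower and red higher in Trp53_KO at an adjusted p under 0.05, grey is not called. Oas3 and Oas2 lie farthest to the left at -3.86 and -2.52, and Irf7 at -1.40 is the lowest of the companion genes.

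Among tested genes with a RefSeq promoter, 327 carried the core GAAANNGAAA and 8503 did not. Of those with it 24.2% were lower and 11.0% were higher in Trp53_KO, and their median log2 fold change was -0.07. Of those without it 17.5% were lower and 15.2% were higher, with a median of -0.01. The genes with the core include Oas1a, Oas1g, Oas1c and Oas3, and the difference was not tested.

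The genes around the OAS groups gave few values. Of 11 other protein-coding genes within 100 kb of a member, 8 were matched in the count table by symbol and 2 were tested. Sppl3 averaged 71.1 ± 1.5 CPM in Trp53_KO and 70.7 ± 7.6 CPM in Trp53_WT, and Ankrd13a 94.2 ± 3.3 CPM in Trp53_KO and 94.7 ± 2.1 CPM in Trp53_WT (SD, n = 3 each). Neither was called (edgeR adjusted p = 0.95 and 0.94). The remaining 6 had at most 4 counts in any library.

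Oasl1 had the highest mean CPM of the members over all 6 libraries and in Trp53_KO, while in Trp53_WT Oasl2 had the highest (15.2 CPM, with 12.8 CPM for Oasl1). For Oasl1 the 5 genes with the most similar log2 CPM over the 6 libraries were Scarna6, Atg14, Tigd5, Eno1 and Tcf3, with Pearson's r of 0.98, 0.98, 0.97, 0.96 and 0.96. Of 9731 candidates, 38 had an r above 0.9. None of the 5 was called between the genotypes. They were picked for likeness to Oasl1, which was not called itself, so this was largely set by the choice. The likeness is a description over 6 libraries.

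The authors' deposited table of repeats, which gives 1 log2 fold change and 1 FDR per repeat locus and read direction, held 200 rows that overlap the bodies of the 8 genes, 196 of them read in the direction of the gene. Of these 200 rows in the authors' deposited table, 1 had an FDR under 0.05, against 0.672% of all rows. It is an MTB element, a long terminal repeat of the MaLR type, at the 3' end of Oas3 (chr5:120753046-120753441), with a log2 fold change of -3.39 and an FDR of 0.0080 in the authors' deposited table. The table places it in the 3' UTR of Oas3, so reads of the gene's own transcript can count for it. Of the 196 sense rows of all 8 genes, 110 were lower, 43 were higher and 43 were at 0 change in the authors' deposited table. The same shares over all repeat rows are not given here. In Oas2, 16 rows in the sense direction were lower, 0 were higher and 25 were at 0 change in the authors' deposited table. In Oasl1, 13 sense rows were lower and 19 higher in the authors' deposited table, and in Oasl2, 25 were lower and 7 higher. The lowest FDR was 0.460 for rows in Oas2, 0.535 for rows in Oasl1 and 0.246 for rows in Oasl2 in the authors' deposited table. Repeats inside a gene share its transcripts and are not independent of each other.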

How the data were processed

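Gene values are whole-number counts per gene symbol, deposited by the authors without normalization. The tools STAR, featureCounts and edgeR and the build mm10 are named, per the submitters' processing notes; their versions, the annotation and the strand setting were not given in the sources used here. Per the labels' protocols, libraries were stranded total RNA. For repeats, the authors deposited a log2 fold change and an FDR (an adjusted p-value) of Trp53_KO against Trp53_WT. The log base was checked on 623 rows at an FDR under 0.05 in exons or 3' UTRs of genes with an absolute log2 fold change above 1, where the median ratio to the gene's own log2 fold change was 1.03 (natural logarithms would give 0.693).

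Counts were fitted with edgeR 4.0.16 in R 4.3.3 on all 6 libraries: filterByExpr (13651 of 41327 genes kept), TMM scaling, a quasi-likelihood test with genotype as the only term, and Benjamini-Hochberg adjustment over all tested genes with a threshold of 0.05. CPM are TMM-scaled. Standard errors are the absolute log2 fold change over the square root of F, and are approximate at low counts. Intervals of count ratios are exact (Clopper-Pearson, 95%) and cover counting error only: with no molecular identifiers, reads need not be separate molecules. The fit was tested on simulated data. Positions and exon lengths are those of GENCODE M21 (GRCm38, to which mm10 corresponds).

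The members and companion lists were chosen with earlier results of these data known. Genes named are the members, the other OAS paralogs, 4 lists (2-5A pathway, double-stranded RNA sensors, relatives in fold, interferon signalling), neighbours within 100 kb and the 5 genes most like the member with the highest mean CPM over all 6 libraries; 3 listed genes are not reported here and are left out of the counts, and not every other listed gene is printed. Alternatives were RLE and upper-quartile size factors, no filter or at least 1 CPM in 3 libraries, a block for the replicate number, leaving out 1 library at a time, DESeq2 1.42.0 and limma-voom (limma 3.58.1).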

Additional observations from a re-analysis of the deposited data

How the results depend on the processing

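Over 13 alternatives (other size factors, other filters, the replicate block, each library left out, DESeq2 and limma-voom), 7 of the 8 members kept their direction and their side of the threshold in every one, and Oas1c lost its call in 2. The number of members called lower was 6 in each alternative but those without Trp53_KO replicate 3 or Trp53_WT replicate 3, where it was 5, and the number called higher was 0 in every alternative. With 1 library left out at a time, the log2 fold change of Oas1c lay between -1.15 and -0.79, that of Oas3 between -4.94 and -3.52, that of Oas2 between -3.03 and -1.90 and that of Oasl1 between 0.06 and 0.26. The count of all genes called was 4130 and lay between 2977 and 4984 with 1 library left out. Same-numbered libraries did not deviate together over all tested genes (r of -0.05, 0.08 and -0.12 for numbers 1 to 3). This cannot show whether they share a batch, since single genes may still go together. With the replicate block 3806 genes and the same 6 members were called. The 4 Oas1 genes summed to 7.15 CPM in Trp53_KO and 14.6 CPM in Trp53_WT without scaling. Depth limits Oas2 and Oas3 most, since their summed counts in Trp53_KO were 18 and 17. In the companion lists, a call was lost in at least 1 alternative by 1 of 5 genes of the 2-5A pathway, 2 of 7 sensors, 2 of 5 relatives in fold and 2 of 10 interferon signalling genes. A call was gained in at least 1 alternative by 1 gene of the 2-5A pathway (Enpp1), 1 sensor (Eif2ak2) and 2 interferon signalling genes (Irf2 and Irf3), and no listed gene was called in the opposite direction.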
